A study of Homo sapiens with 12 samples.

Results

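The 77 genes described here encode the proteins of the cytosolic ribosome in human cells. They were taken from a table of 38516 genes by name alone: the RPL and RPS genes with a plain number or an added A or X, the stalk genes RPLP0, RPLP1 and RPLP2, and RPSA and FAU. RPS27A, which makes a fusion with ubiquitin, was left out, and pseudogenes were not taken. Of the 77, 31 belong to the small subunit and 46 to the large subunit. The naming rule uses no measured value, though it was set with earlier results of these data known. All 77 had enough signal to be tested.

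Each ribosome carries a single copy of nearly every one of these proteins, held on a scaffold of ribosomal RNA, with the acidic stalk proteins RPLP1 and RPLP2 as the known exception. Their mRNAs are among the most abundant of a growing cell, and most begin with a C followed by a run of pyrimidines, the terminal oligopyrimidine tract, through which growth signals such as mTOR set how well they are translated. Several members also act away from the ribosome. RPL5 and RPL11, for example, leave with the smallest ribosomal RNA and bind MDM2, the ubiquitin ligase of p53.

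RNA-seq was done on the established human cell lines KYSE150 and KYSE510, which come from squamous cell carcinomas of the esophagus. The study compared cells in which HCP5 was silenced with control cells of the same line. HCP5 is a long non-coding RNA gene of the major histocompatibility region, and the series title links it to apoptosis, c-Myc and UTP3. There were 4 groups of 3 libraries: KYSE150 control, KYSE150 with HCP5 silenced, KYSE510 control and KYSE510 with HCP5 silenced. All cells were grown in RPMI-1640 with serum. Every library title, controls included, starts with the letters sh, left unexplained in the labels, and neither the silencing nor the control reagent is named. Nothing in the labels says that replicates were separate cultures, so p-values measure only the spread between these libraries.

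Reads assigned to genes ran from 20035025 to 28202422 per library, and every silenced KYSE150 library was deeper than every control library of that line. HCP5 itself was at 0.779, 0.745 and 0.786 RPKM (assigned reads scaled to exon length and library total) in KYSE150 controls and 0.315, 0.418 and 0.579 in silenced libraries. In KYSE510 it was at 0.914, 1.85 and 1.40 in controls against 0.505, 0.951 and 0.948 in silenced libraries. The groups did not overlap in KYSE150 and overlapped in KYSE510, and HCP5 passed the test in neither line (log2 change -0.45, adjusted p = 0.267, and -0.53, adjusted p = 0.646, limma). Among 13 markers of squamous epithelium, 12 reached 1 RPKM in KYSE150, all but SOX2, and 13 in KYSE510. Of 4 keratins of simple epithelium, KRT8, KRT18 and KRT7 reached 1 RPKM in both lines, and KRT19 did in KYSE510. Their summed level was 1243 to 1524 RPKM in KYSE150 controls and 1277 to 1682 in KYSE510 controls. Of the other cell types, the 7 fibroblast genes summed to at most 0.901 RPKM, with PDGFRA at 0 in several groups, and the 3 globin genes to at most 0.117. Single genes passed 1 RPKM in the remaining lists: CD68 of the leukocyte list, CDH5 of endothelium in KYSE510, and ACTA2 of muscle in KYSE510 controls.

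Where the starts of these genes are annotated, the sequence shows the tract they are known for. RefSeq on GRCh38.p14 gave a start for 62 of the 77 members, some with several starts. At 46 of the 62 (74.2%) at least 1 annotated start was a C with the next 4 bases all C or T, against 5.14% of 27305 genes in the same table. A C followed by 5 or more pyrimidines anywhere within 15 bases of a start was found in 55 members (88.7%), against 28.5% of all genes. The windows below are those of members that the later results turn on, 15 bases before the annotated start and 15 from it, written 5′ to 3′ on the gene's strand, with the first such run of pyrimidines in capitals.
RPL12, chr9:127451392-127451421, minus strand: ccgcgcgatttccggCCTCTCggctttcgg
RPL26, chr17:8383179-8383208, minus strand: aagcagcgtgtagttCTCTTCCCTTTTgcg
RPL22, chr1:6199581-6199610, minus strand: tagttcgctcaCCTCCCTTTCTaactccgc
RPS21, chr20:62387088-62387117, plus strand: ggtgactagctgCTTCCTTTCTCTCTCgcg
RPS25, chr11:119018329-119018358, minus strand: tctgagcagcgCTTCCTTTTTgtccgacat
RPS10, chr6:34426055-34426084, minus strand: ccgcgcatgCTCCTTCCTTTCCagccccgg
RPL17, chr18:49492451-49492480, minus strand: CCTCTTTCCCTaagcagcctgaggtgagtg
RPS29, chr14:49598696-49598725, minus strand: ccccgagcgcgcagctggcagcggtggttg
In RPL12 and RPL26 the run began exactly at the annotated start. In RPL22, RPS21, RPS25 and RPS10 it began 3 to 6 bases before it, so that the start lay inside the run. The run of RPL17 lay wholly before its annotated start. RPS29 had no such run in the window, which says only that these letters are not there.

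Other short motifs were searched on both strands of the 300 bases from 250 before to 50 after each start. The ETS-type motif CCGGAAG was present in 21 of 62 members (33.9%), against 12.2% of all genes. The YY1-type motif AAGATGGC, which can overlap its last 3 letters, was present in 7 (11.3%, against 3.52%). TATAAA was found in 5 (8.06%, against 13.99%) and the E-box CACGTG, the core bound by c-Myc with MAX, in 4 (6.45%, against 8.77%). These are matches of letters, not measured binding.

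Ribosomal protein genes took between 3.95% and 4.84% of assigned reads in every library. The share was 4.53% ± 0.273 (SD, n = 3) in KYSE150 controls and 4.27% ± 0.147 in silenced KYSE150, and the ranges overlapped (4.36% to 4.84% and 4.14% to 4.43%). In KYSE510 it was 4.26% ± 0.0647 in controls and 3.99% ± 0.0536 in silenced libraries, where the ranges of 4.19% to 4.31% and 3.95% to 4.05% did not overlap. The share of a library depends on all its other genes. Mitochondrial genes alone took 7.49% to 11.5% of reads, and without them the shares were 4.95%, 4.63%, 4.76% and 4.47% in the same order of groups. In bulk libraries, fewer cells of a kind and less RNA per cell cannot be told apart.

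Although the proteins are needed in equal numbers, the levels of their genes on the RPKM scale spread widely. Mean RPKM over the 12 libraries had a median of 128 over the 77 members and ran from 5.47 for RPS29 to 939 for RPL23A, a ratio of 172. RPL23A, RPL13A, RPS12 and RPL19 were among the highest 5. The lowest 5 were RPS29, RPS28, RPL10, RPL15 and RPS15A. The order was alike in both control lines (Spearman's rho 0.929 across the 77 genes, as a description).

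The order depends in part on the length each value was divided by. The table divides by all annotated exon bases of a gene, and members with many annotated bases had low values (rho -0.498 between mean RPKM and exon bases over 77 genes). RPS29, a small zinc-binding protein of the small subunit, was divided by 9783 exon bases although its shortest principal GENCODE mRNA has 296 bases. Divided by the length of such mRNAs instead, the reads gave a median of 564 on the same scale, and RPS28 was lowest at 29.3. This scale also depends on its lengths, which had a median of 704 bases. The mRNA used for RPS28 had 1326 bases and that for RPL37 had 7686, and RPL37 moved from rank 62 to 76. RPL26 moved from rank 13 to rank 2, while RPL23A moved from 1 to 3. The rank correlation between the scales was 0.785. Levels of different members are therefore read here only within a stated scale, and the comparisons that follow compare each gene with itself, where length cancels.

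**Figure D1:**
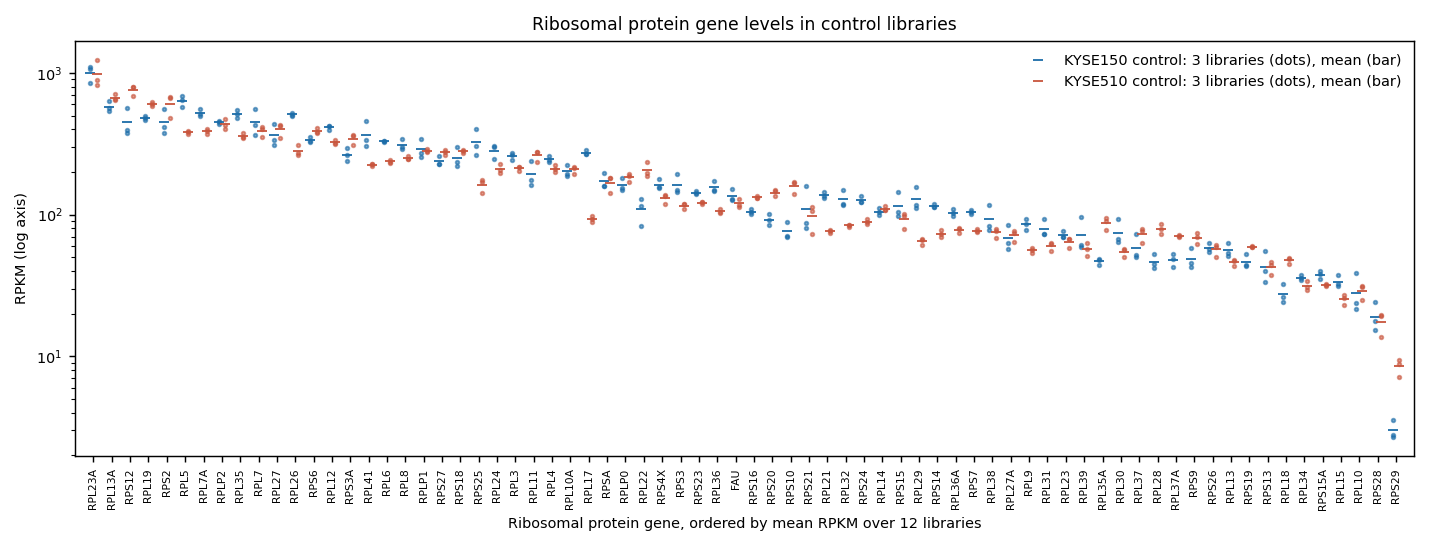
RPKM (log axis) of 72 ribosomal protein genes in the 3 control libraries of KYSE150 (blue) and of KYSE510 (red), with bars at the group means and genes ordered by mean RPKM over 12 libraries. The order is broadly shared, from RPL23A at 939 to RPS29 at 5.47, while RPL17 and RPS29 show wide gaps between the lines.

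Copies and overlapping genes bear on single values. The table lists 751 rows named as pseudogenes of members, 74 of them of RPL23A, 53 of RPL7, 50 of RPSA and 42 of RPL21. Together they held only 0.129% to 0.201% of reads per library. For a few genes they were not small: reads on pseudogene rows came to 40.2% of the reads of RPL15, 26.5% of RPL9, 25.9% of RPL41 and 15.3% of RPL23A, so these values are uncertain. The use of strand in counting is not given in the sources used here, so overlapping genes can also share reads. RPL10 had 52.7% of its exon bases under DNASE1L1 on the other strand, RPL17 had 32.7% under the readthrough gene RPL17-C18orf32 and small nucleolar RNA genes on its own strand, and RPS10 had 28.8% under the readthrough gene RPS10-NUDT3.

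Before silencing is compared, the libraries need a description, because ribosomal protein genes did not vary independently among replicates. In KYSE150 control replicate 3, 61 of the 77 members were higher than in both other controls, where 55.1% of all 17823 genes tested were. Against the mean of the other controls, RPS21 stood 0.93 higher there on the log2 scale and RPL22 0.55 lower, with the other members between. The same members lined up in other libraries. In silenced KYSE150 replicate 3 the deviations from its partners followed the same order (r = 0.867 over 77 genes), and in silenced replicate 1 the reverse order (r = -0.889). Deviations within a group cancel in sum for each gene, so these values of r are not independent of each other.

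KYSE510 had a library of the opposite kind. In its control replicate 1, RPS21 stood 0.60 lower than in the other controls and RPL23A 0.54 higher. Over the 77 members, the deviation of this library correlated with that of KYSE150 control replicate 3 at r = -0.774, with opposite signs in 68 of 77. Over all 17823 genes the correlation was -0.251, with opposite signs in 69.2%. Genes are not independent replicates, so these values describe the libraries and have no p. The order of members along this axis had a rank correlation of 0.236 with mRNA GC content, -0.049 with mRNA length, -0.286 with mean RPKM and -0.355 with the number of named pseudogenes. What sets the axis was not tested, and the counts of calls and signs for each line and the largest silencing changes are given both with all libraries and without that line's library of these 2. These libraries were picked out by the members' own values. Leaving such a library out moves the changes of members that deviate in it, so those fits are no separate support.

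**Figure D2:**
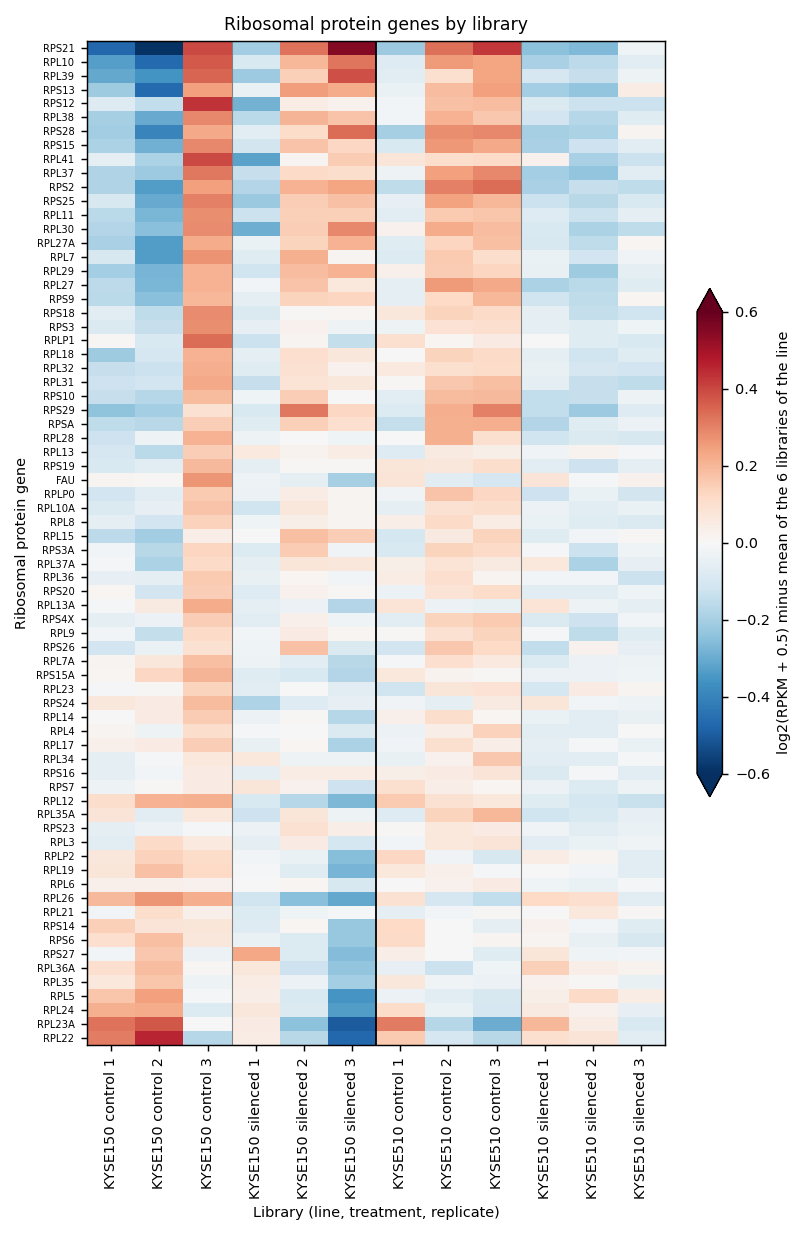
Deviation of log2(RPKM + 0.5) from the mean of the 6 libraries of the same line, for 72 ribosomal protein genes (rows) and 12 libraries (columns), with rows ordered by how far KYSE150 control replicate 3 lies from the other controls. RPS21, at the top, stands 0.93 higher in that library and RPL22, at the bottom, 0.55 lower, and KYSE510 control replicate 1 shows the opposite order.

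Members differed in how much they took part. The pooled SD within groups, on the log2 scale, had a median of 0.107 and ran from 0.0325 for RPL6 to 0.382 for RPS21, with RPL10 (0.266) and RPL39 (0.261) next. RPL39, a very short protein lining the exit tunnel for the new chain, was at 60.8, 58.6 and 95.9 RPKM in KYSE150 controls and 64.7, 83.2 and 98.5 in silenced libraries. In KYSE510 it was at 51.3, 57.4 and 63.3 in controls against 50.01, 48.6 and 52.4 in silenced libraries. Its values in both KYSE150 groups spanned nearly the same range.

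In KYSE150, no ribosomal protein gene passed the test on silencing HCP5: 0 of 77 had an adjusted p under 0.05 (limma), and 0.499% of all genes tested did. At an unadjusted p under 0.05 there were 14 lower and 2 higher members, 16 in all, where 18.1% of all genes were past that line. Without control replicate 3 there were 12 lower and 20 higher (29.4% of all genes), and with each library centred on its median gene 28 lower and 0 higher (16.7%). By sign, 38 members were higher and 39 lower, with a median log2 change of -0.02, beside 66.1% higher and a median of 0.08 over all genes. Scaling moved this split: with median centring 61 of 77 were lower, with a median of -0.15, beside 58.9% lower and -0.05 for all genes, and with quantile normalization 34 were lower. Without control replicate 3, 28 were lower and 49 higher, beside 31.7% lower over all genes.

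The labels number the replicates but do not say that same-numbered libraries belong together. Same-numbered libraries of a line were taken as pairs because their values deviated together in these data. The pairing is thus an assumption, drawn from the same values that the blocked fit then tests. The correlations overlapped: KYSE150 control replicate 2 had r = 0.184 with silenced replicate 1 and 0.147 with silenced replicate 2. A fit that keeps the pairs as a block called 4 members lower in KYSE150: RPL26, RPL12, RPL23A and RPL22. The same fit called 6.7% of all genes, 1.66% lower and 5.04% higher. Without control replicate 3 the unblocked fit also called 4, with RPL26, RPL12 and RPL22 lower and RPL10 higher, in a fit that called 7.22% of all genes. All 4 members that the block called belong to the large subunit, as do 46 of all 77 members.

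RPL26 (chr17:8377520-8383213), known to bind the mRNA of p53 as well as the ribosome, fell most clearly in that fit. It was at 498.5, 523 and 507 RPKM in KYSE150 controls and 400.0, 366 and 351 in silenced libraries. Every silenced library lay below every control. The log2 change was -0.45 ± 0.087 (SE), with an adjusted p of 0.053 without the block and 0.023 with it. In KYSE510 RPL26 was at 311, 271 and 263 in controls against 317, 312 and 279 in silenced libraries, higher in 3 of 3 pairs with overlapping groups (log2 change 0.11, adjusted p = 0.942). The difference between the changes of the lines was 0.56 ± 0.12, with an adjusted p of 0.389.

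RPL23A (chr17:28719393-28724359) sits at the mouth of the exit tunnel and was the most abundant member by RPKM. It was at 1063, 1097 and 844 RPKM in KYSE150 controls and 876, 715 and 599 in silenced libraries. Each silenced library lay below its same-numbered control, but the groups overlapped, because control replicate 3 lay below silenced replicate 1. The change of -0.46 ± 0.18 had an adjusted p of 0.226 without the block and 0.041 with it, and was -0.58 without control replicate 3 (adjusted p = 0.080). In KYSE510 it was at 1243, 889.6 and 816 in controls against 1151, 1034 and 941 in silenced libraries, and control replicate 1 stood above all other libraries of both lines.

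RPL22 (chr1:6181269-6209389), an RNA-binding protein with known roles in lymphocyte development, was at 116, 129 and 82.9 RPKM in KYSE150 controls and 96.6, 83.2 and 67.4 in silenced libraries. All 3 silenced libraries lay below their same-numbered controls while the groups overlapped. Its change was -0.39 ± 0.17, with an adjusted p of 0.256 without the block and 0.046 with it, and it was -0.58 without control replicate 3 (adjusted p = 0.044). KYSE510 values were 234, 196 and 187 in controls against 225, 222 and 201 in silenced libraries, with no common direction over the pairs.

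The members with the largest increases in KYSE150 were RPS21, RPS13 and RPL10, and none of them passed the test with or without the block. RPS21 (chr20:62387116-62388520) was at 87.3, 80.3 and 160.1 RPKM in controls against 105, 152 and 178 in silenced libraries. Its change of 0.45 ± 0.27 had an adjusted p of 0.397, and control replicate 3 lay above 2 of the silenced libraries. Without that control the change was 0.76 (adjusted p = 0.066). RPS13 was at 40.1, 33.6 and 55.2 in controls against 45.2, 55.5 and 54.5 in silenced libraries (0.29, adjusted p = 0.365), and its change was 0.48 without control replicate 3 (adjusted p = 0.053). RPL10 (chrX:154389955-154409168), a late-joining protein at the core of the large subunit, was at 23.7, 21.5 and 38.7 in controls against 28.0, 34.4 and 37.4 in silenced libraries. Its change was 0.29 ± 0.19 with all libraries (adjusted p = 0.444) and 0.54 without control replicate 3, where it was called. RPL10 stood 0.76 higher on the log2 scale in that library than in the other controls. The library was singled out by such deviations, so the call follows in part from that choice.

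Counted by libraries, 13 members had all silenced KYSE150 values below all controls, where 5.47% of all genes did, and 23 were lower in 3 of 3 pairs, where 13.7% did. In 1 member all silenced values lay above all controls, where 13.7% of genes did, and 7 members were higher in 3 of 3 pairs, where 37.4% were. Squamous markers moved in the same libraries: their summed level was 1122 to 1812 RPKM in KYSE150 controls and 1395 to 3064 in silenced libraries, and of the 13 genes 0 were called without the block and 8 higher with it. The part of markers, depth and the library axis in the ribosomal protein values was not tested.

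In KYSE510, again 0 of 77 members passed the test, where 0.0393% of all genes did, and the blocked fit called 0 as well, with 0.112% of all genes. Unadjusted p under 0.05 was reached by 5 members, all lower, and by 6.35% of all genes. The spread is shared over all groups, and this count was 22 without KYSE150 control replicate 3 (7.66% of all genes), 18 without KYSE510 control replicate 1 (9.46%) and as low as 1 with a single other KYSE510 library left out. With all libraries these were RPL37, RPL27, RPL31, RPL12 and RPL28, all of the large subunit, which holds 46 of the 77 members. The signs were lopsided: 67 of 77 were lower, 28 of 31 in the small subunit and 39 of 46 in the large, beside 57% of all genes. The median log2 change was -0.12 over members and -0.02 over all genes. With median centring 63 were lower (49.3% of all genes), with quantile normalization 64 (50.8%), and without control replicate 1, 63 (64.8%). The median without that control was -0.17 over members and -0.06 over all genes.

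Library by library, 30 members had all silenced KYSE510 values below all controls, where 6.87% of all genes did, and 55 of 77 were lower in 3 of 3 pairs, where 21.8% did. RPL5 and RPL36A were the members with all silenced values above all controls (5.22% of all genes), and 5 members were higher in 3 of 3 pairs (16% of all genes). The single changes were small beside their error: standard errors of members ran from 0.059 to 0.27, with a median of 0.090. With 3 libraries a group, a member change near the median of -0.12 was thus not detectable for most members.

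The largest decreases in KYSE510 were those of RPS21, RPL37 and RPS2. RPS21 was at 72.3, 106 and 113 RPKM in controls against 70.9, 70.0 and 82.7 in silenced libraries (-0.36 ± 0.27, adjusted p = 0.933). Control replicate 1 lay among the silenced values, and the other controls above them. Without control replicate 1 the changes were -0.56 for RPS21, -0.44 for RPL37 and -0.48 for RPS2, and none passed. RPL37 was at 63.2, 76.8 and 79.1 in controls against 56.0, 54.7 and 61.8 in silenced libraries, with no overlap (-0.34 ± 0.14, adjusted p = 0.749). RPS2, at the entrance of the mRNA channel, was at 484, 662 and 679 in controls against 471, 488 and 485 in silenced libraries (-0.32 ± 0.17, adjusted p = 0.858), and only control replicate 1 kept the groups from separating.

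The largest increases were smaller, led by RPL36A, RPL5 and RPL26. RPL36A was at 78.9, 74.5 and 80.2 RPKM in KYSE510 controls and 90.1, 83.8 and 82.8 in silenced libraries (0.13 ± 0.086, adjusted p = 0.904). RPL5 was at 389, 382 and 373 in controls against 408, 432 and 411 in silenced libraries (0.13 ± 0.10, adjusted p = 0.942). In KYSE150 the changes of both had the other sign, -0.19 for RPL36A and -0.27 for RPL5. The RPL5 groups overlapped there, with silenced replicate 1 at 593 RPKM above control replicate 3 at 574. Without control replicate 1 the KYSE510 changes were 0.14 for RPL36A and RPL5 and 0.18 for RPL26. Summed squamous markers in KYSE510 were 1607 to 2183 RPKM in controls and 1989 to 3260 in silenced libraries, and their part in these values was not tested.

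Averaged over both lines, a single member passed: RPL12 (chr9:127447674-127451405), which forms the base of the stalk where translation factors dock. RPL12 was at 394, 423 and 425 RPKM in KYSE150 controls and 343, 325 and 303 in silenced libraries. In KYSE510 it was at 336, 321 and 314 in controls against 287, 280.0 and 275 in silenced libraries. Every silenced library of each line lay below every control of that line. The mean log2 change was -0.28 ± 0.049 (adjusted p = 0.034, limma, and 0.034 with the block), where 0.539% of all genes passed, 0.18% lower, and 2.74% with the block. The line values were -0.35 (adjusted p = 0.058, and 0.035 with the block) and -0.21 (adjusted p = 0.567). RPL12 has 38 named pseudogene rows, with reads equal to 3.05% of its own.

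The RPL12 call is narrow. It was lost when any 1 of 10 of the 12 libraries was left out, all but KYSE150 control replicate 3 and KYSE150 silenced replicate 1, and also with median centring, with no filter on low values and with no trend in the spread. In the fits that lost the call its mean change ran from -0.33 to -0.26.

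RPL12 was not alone in its direction. The mean change was lower in 68 of 77 members, beside 40.9% of all genes, and in 76 with median centring, beside 58.3%. Of the 77 members, 10 were lower in 6 of 6 pairs, among them RPL12, RPL7A, RPS6, RPS14, RPS15A, RPL19, RPL17, RPL14 and RPL6, where 2.77% of all genes did, and 0 were higher in 6 of 6. In 4 of them, RPL12, RPL7A, RPL6 and RPS15A, the silenced and control values were separate in both lines. Over all genes, 5.47% were lower without overlap in KYSE150 and 6.87% in KYSE510, and the share in both lines was not counted. RPL7A was at 496, 513 and 556 RPKM in KYSE150 controls against 479, 469 and 437, and at 372, 401 and 389 in KYSE510 controls against 353, 365 and 366. RPL6, the least variable member, was at 329, 329 and 327 against 321, 324 and 301, and at 233, 237 and 241 against 229, 226 and 231. RPS6, the substrate of S6 kinase, had a change of -0.23 in KYSE150 (adjusted p = 0.162) and -0.09 in KYSE510 (adjusted p = 0.942). None of these but RPL12 passed the test over both lines.

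**Figure D3:**
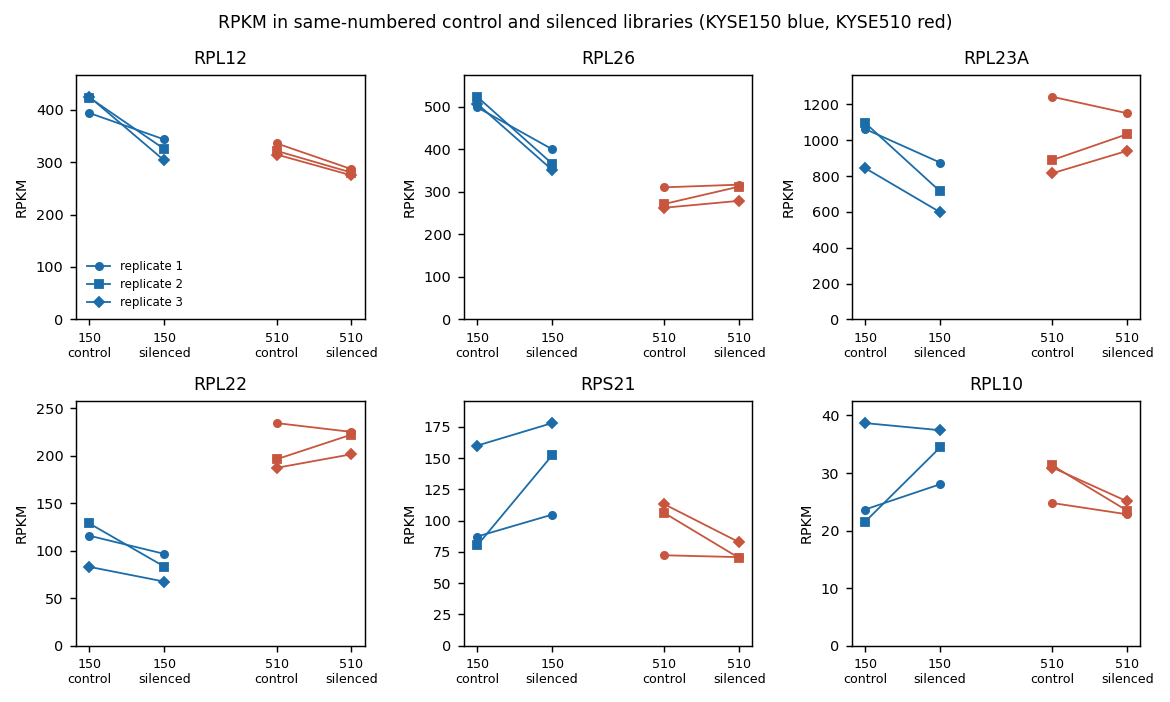
RPKM of 6 ribosomal protein genes in same-numbered control and silenced libraries, joined by lines, in KYSE150 (blue) and KYSE510 (red), with axes from 0. RPL12 is lower in all 6 pairs, RPL26, RPL23A and RPL22 are lower in all 3 pairs of KYSE150 but not in all pairs of KYSE510, and RPS21 and RPL10 show the wide spread among controls.

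Between the lines, 29 of the 77 members (37.7%) had changes of the same sign, all 29 lower. Over all genes 43.4% had the same sign and 16.9% were lower in both. The change in KYSE150 correlated with that in KYSE510 at r = -0.728 over members and at -0.001 over all 17823 genes. The lines share no control library, but each change contains its own controls, of which KYSE150 control replicate 3 and KYSE510 control replicate 1 lie at opposite ends of the axis described above. Without both, r was -0.868 over members and -0.190 over all genes, and 14 members were lower in both lines (14.9% of all genes). The axis also runs through the silenced libraries, and its part in this pattern was not tested. Tested as a difference between lines, 0 of 77 members passed (0% of all genes did), and 10 had an unadjusted p under 0.05, where 12.2% of all genes did. That count was 39 without KYSE150 control replicate 3 (24.4% of all genes), 22 without KYSE510 control replicate 1 (19.7%) and 25 with the block (25.9%).

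Members known for particular roles had these silencing values. The stalk genes RPLP0, RPLP1 and RPLP2 had log2 changes of 0.01, -0.17 and -0.21 in KYSE150 and -0.18, -0.11 and -0.01 in KYSE510. RPL11, the partner of RPL5 in binding MDM2, had 0.11 and -0.17, against -0.27 and 0.13 for RPL5. RPS19, the gene most often mutated in Diamond-Blackfan anemia, had -0.03 and -0.16. RPSA, known also as a laminin receptor precursor, had 0.12 and -0.19. FAU, whose product is a ubiquitin-like protein fused to a small-subunit protein, had -0.19 and 0.06, and RPS4X on chromosome X had -0.04 and -0.15. None of these passed the test. In KYSE150 the signs of RPLP0, RPL11, RPSA, RPS19 and RPS4X, and in KYSE510 that of RPLP2, turned with the scaling or with a library left out.

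Members with a pyrimidine tract at the annotated start (46 genes) and without it (16 genes) had median silencing changes of -0.03 and 0.01 in KYSE150 and -0.11 in both sets in KYSE510. Their median differences between the control lines were -0.04 and -0.30. Of other genes whose mRNAs are known to carry the tract, mostly translation factors, 23 were tested and 0 passed in either line. Their medians were -0.07 in KYSE150 and -0.08 in KYSE510, with 15 and 16 of 23 lower. The block called 2 of them lower in KYSE150, EEF1B2 (-0.34) and EEF1G (-0.33), both subunits of the elongation factor that recharges EEF1A. Among 17 regulators of these mRNAs, such as LARP1 and mTOR pathway genes, 15 were higher on silencing in KYSE150, beside 66.1% of all genes. Their median there was 0.16, and the block called RPTOR (0.31). In KYSE510, 9 of the 17 were higher, with a median of 0.005. Of 22 chaperones and loading factors of ribosomal proteins, 0 passed in either line, and the block called BCCIP lower in KYSE150 (-0.49). Of 10 genes of the response to faulty ribosome assembly, 0 passed in either line, and the block, which called 5.04% of all genes higher in KYSE150, called MDM2 (0.40) and SESN2 (0.47) there.

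The lines themselves differed far more than silencing changed either. Between control KYSE510 and control KYSE150, 54 of 77 ribosomal protein genes passed the test, 21 higher in KYSE510 and 33 higher in KYSE150, in a comparison where 62% of all genes passed, 28.3% higher in KYSE510 and 33.7% lower. The members' share is thus near that of all genes. The subunits were not alike in their counts: 12 members of the small subunit were higher in KYSE510 and 10 lower, whereas in the large subunit 9 were higher and 23 lower. Median differences were -0.03 in the small subunit and -0.25 in the large, and -0.07 over all genes. Values of the groups did not overlap for 54 members, where they did not for 64% of all genes. Most differences were modest, and 3 members exceeded 1 on the log2 scale, where 21.3% of all genes did.

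RPL17 (chr18:49488453-49492523), a protein near the exit tunnel, differed most. It was at 266, 269 and 288 RPKM in KYSE150 controls and 89.3, 97.0 and 93.1 in KYSE510 controls, 2.94-fold higher in KYSE150 (log2 difference -1.55 ± 0.071, adjusted p = 8.62e-09). Silenced libraries of the same lines stood at 252, 262 and 228, and at 87.0, 89.8 and 88.2. The 6 libraries of each line were thus close together and far from the other line. Whether reads shared with its readthrough and small nucleolar RNA genes are part of this value was not tested.

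RPS29 (chr14:49570984-49599164) and RPS10 (chr6:34417454-34426125) led in the other direction. RPS29 was at 2.70, 2.78 and 3.52 RPKM in KYSE150 controls and 7.11, 8.86 and 9.42 in KYSE510 controls (1.36 ± 0.13, adjusted p = 4.84e-06). RPS10, whose ubiquitination marks collided ribosomes, was at 71.1, 69.5 and 89.2 and at 141, 168 and 169 (1.06 ± 0.11, adjusted p = 6.25e-06). For both, every KYSE510 control lay above every KYSE150 control.

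RPL22, RPL35A and RPS12 were also among those higher in KYSE510. RPL22 differed by 0.93 ± 0.17 (adjusted p = 0.00052) and RPL35A, a gene of Diamond-Blackfan anemia, by 0.88 ± 0.085 (adjusted p = 3.73e-06). RPS12 was at 398, 379 and 568 RPKM in KYSE150 controls and 692, 791 and 797 in KYSE510 (0.78 ± 0.15, adjusted p = 0.00065). Control replicate 3 was the highest KYSE150 control of RPS12 and still lay below all KYSE510 controls.

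Beside RPL17, those higher in KYSE150 included RPS25, RPL29, RPL26 and RPL21. RPS25 (chr11:119015712-119018691), needed by many viral internal ribosome entry sites, was at 306, 265 and 404 and at 142, 174 and 169 (-0.99 ± 0.15, adjusted p = 0.00017). RPL29 differed by -0.96 ± 0.13, RPL26 by -0.86 ± 0.087 and RPL21 by -0.84 ± 0.060. The groups were separate for all 4.

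RPL11 and RPL5, partners in binding MDM2, did not share a direction between the lines. For RPL11 the control values overlapped, with KYSE150 replicate 3 at 239 RPKM above KYSE510 replicate 1 at 235. RPL11 was higher in KYSE510 (0.46 ± 0.14, adjusted p = 0.011) and its partner RPL5 higher in KYSE150 (-0.73 ± 0.10, adjusted p = 7.49e-05). RPS19 (0.35, adjusted p = 0.0020) was higher in KYSE510. RPS6 (0.21, adjusted p = 0.027) was higher in KYSE510 too, but lost the call in 6 of 23 other fits. RPS4X was higher in KYSE150 (-0.32, adjusted p = 0.0052). The stalk genes RPLP0 (0.20, adjusted p = 0.060), RPLP1 (-0.02, adjusted p = 0.897) and RPLP2 (-0.05, adjusted p = 0.619), with RPSA (-0.03, adjusted p = 0.820) and FAU (-0.18, adjusted p = 0.098), did not pass.

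Where a member lies went with how it differed. For each member the median difference of the other tested genes within 2 Mb, members excluded, was set beside its own. Over the 77 members the values correlated at r = 0.757 and rho = 0.730, and they had the same sign in 62 of 77 (80.5%). The same measure over 17742 genes gave r = 0.346 and rho = 0.415, with the same sign in 65.6%. Neighbouring genes of several members overlap, so these are descriptions with no p. RPS29 (1.36) lay among 35 neighbours with a median of 0.89, RPS10 (1.06) among 73 with 0.72 and RPL22 (0.93) among 23 with 0.70. At the other end, RPS25 (-0.99) lay among 61 neighbours with a median of -0.85 and RPL17 (-1.55) among 27 with -0.48.

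Of the 54 members called between lines, 46 had the sign of their neighbours. The 8 others included RPL6, RPS15A, RPL13, RPL9, RPL34, RPS3A and RPL36A. RPL9 differed by -0.61 ± 0.076 beside a neighbour median of 0.42, the widest of these gaps. Chromosome 19 holds 12 members, of which 8 passed the test as higher in KYSE510 and 2 as lower. Over all genes of all chromosomes 28.3% passed as higher and 33.7% as lower, and the share on chromosome 19 was not counted. The median of the 12 was 0.30, beside -0.10 over the 1212 genes tested there. DNA copy number was not measured in these files.

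**Figure D4:**
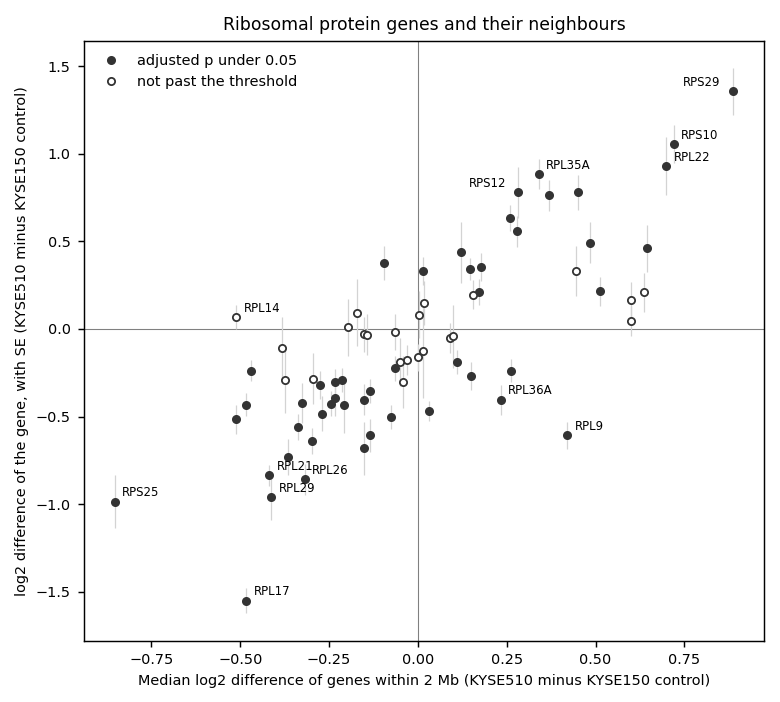
Each of the 72 points is a ribosomal protein gene, with its own log2 difference between KYSE510 and KYSE150 controls (vertical axis, bars show the SE) against the median difference of other genes within 2 Mb (horizontal axis). Filled points passed an adjusted p under 0.05, and points such as RPS29, RPS10 and RPL22 at the upper right and RPS25 at the lower left lie with their neighbourhoods, while RPL9 does not.

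Among paralogs of members, which make alternative versions of a ribosomal protein, RPL39L and RPL22L1 differed more between the lines than any member. Differences of members ran from -1.55 to 1.36, and the other paralogs named here lay within that range. Of 8 genes tested, ubiquitin fusions included, 4 passed as higher in KYSE510 and 4 as higher in KYSE150. Over all genes 62% passed. RPL39L was at 0.0471, 0.0919 and 0.416 RPKM in KYSE150 controls and 30.6, 32.0 and 31.8 in KYSE510 controls (5.58 ± 0.21, adjusted p = 1.60e-09), whereas RPL39 did not pass (-0.29, adjusted p = 0.202). The log2 value understates this, since the KYSE150 values lie below the pseudocount. RPL22L1, which RPL22 is known to hold down, was at 21.7, 21.3 and 22.5 in KYSE150 controls and 4.25, 5.002 and 4.97 in KYSE510 (-2.09 ± 0.079, adjusted p = 1.72e-09), opposite in sign to RPL22. RPL26L1 (-1.38) had the sign of RPL26, and RPL36AL (0.69) was opposite to RPL36A (-0.40). RPL7L1 (0.50) and RPS27L (-0.68) passed while RPL7 and RPS27 did not. RPS27A, the ubiquitin fusion, was higher in KYSE510 (0.63). RPL3L, a muscle form, stayed at or below 0.0414 RPKM in all libraries. On silencing, 0 of the 8 tested passed in either line.

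Other lists of genes tied to translation differed in their split between the lines, counted here by genes that passed the test. Over all genes tested, 28.3% passed as higher in KYSE510 and 33.7% as higher in KYSE150, with a median of -0.07. Of 23 tract-bearing translation genes 16 were higher in KYSE150 and 4 in KYSE510, with a median of -0.44. TPT1, a growth-linked protein with a classical tract, was at 136 ± 11.9 RPKM (SD, n = 3) in KYSE150 controls and 62.8 ± 6.93 in KYSE510 (-1.11, adjusted p = 1.75e-06), and EIF3H, a subunit of an initiation factor, was among the 4 higher in KYSE510 (1.89, adjusted p = 3.64e-09). Of 22 chaperones and loading factors, 14 were higher in KYSE150 and 1 in KYSE510 (median -0.40), with SBDS (-1.62) and RPF2 (-1.23) the most different. Among 12 host genes of small nucleolar RNAs, 2 were higher in KYSE510 and 4 in KYSE150, led by SNHG5 (-1.67). Of 17 regulators of tract-bearing mRNAs, 7 were higher in KYSE510 and 5 in KYSE150, with a median of -0.01.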

How the data were processed

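RNA-seq was analysed from 12 libraries, 3 in each of 4 groups, with group, line and replicate number from the labels. Per the file headers, the authors deposited RPKM per gene with summed exon length and exon positions, and per the submitters' processing notes HISAT2, DESeq and the build GRCh38 were used. Their roles, the annotation release and the use of strand are not given in the sources used here. RPKM multiplied by length gave whole reads for 100% of values (tolerance 0.02), and these summed to the implied total in 12 of 12 libraries.

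Genes with at least 0.5 RPKM in at least 3 libraries (17823) were fitted on log2(RPKM + 0.5) with limma 3.58.1 in R 4.3.3: 4 group means, 8 residual degrees of freedom, two-sided, Benjamini-Hochberg over all genes tested, threshold 0.05. This scale understates changes of low genes. Same-numbered control and silenced libraries deviated together (r 0.147 to 0.415 in 6 pairs, -0.385 to 0.184 otherwise), so numbers were taken as pairs, and the replicate block left 4 degrees of freedom. The member rule uses names only, but it and the gene lists were set with earlier results of these data known. Named members are the highest and lowest 5 by level, those past the threshold on silencing, the 3 largest rises and falls in each line, the 6 most different each way between lines, the 3 most variable, and a few set by role. The fit was tested on simulated data. Alternatives changed the pseudocount, filter, scaling, pairing, libraries, spread model, voom on recovered reads and pseudogene reads. Levels by the length of the shortest APPRIS principal mRNA of GENCODE were added after seeing the data. Values of some genes are not reported here, and the figures leave out 5 members, which all counts, medians and correlations include.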

Additional observations from a re-analysis of the deposited data

How the results depend on the processing

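The count of 0 members called in KYSE150 became 1 with a pseudocount of 1 and with the filter at 1 RPKM, 4 with the replicate block, 2 with voom, and 0 to 4 when single libraries were left out (4 without KYSE150 control replicate 3, and 1 without KYSE510 control replicate 1). In KYSE510 and for the difference between lines it was 0 in every fit run, with the replicate block too. Over both lines the 1 call, RPL12, became 0 with no filter, with median centring and without a trend in the spread, and 0 to 1 over single libraries left out. Between control lines 50 to 56 members were called with single libraries left out. The median over members in KYSE150 was -0.15 with median centring and -0.04 to 0.07 over libraries left out. It was -0.17 to -0.11 in KYSE510 and -0.22 to -0.06 between lines. The members' share of reads was 4.95%, 4.63%, 4.76% and 4.47% without mitochondrial genes (KYSE150 control and silenced, then KYSE510), and with pseudogene reads added 4.43% in silenced KYSE150, 4.40% in KYSE510 controls and 4.12% in silenced KYSE510. Between lines, RPSA ranged from -0.095 to 0.0857 over libraries left out, above 0 without KYSE150 control replicate 3 or KYSE510 control replicate 1. RPLP1 turned to 0.014 with quantile normalization, 0.0127 with median centring and 0.0119 scaled to reads outside members and mitochondrial genes, and ranged from -0.1043 to 0.1084 over libraries left out, above 0 without KYSE150 control replicate 3 or KYSE510 control replicate 2. Silencing changes in KYSE150 turned with median centring in RPSA (-0.0136), RPL11 (-0.024) and RPLP0 (-0.1158), in RPLP0 with scaling to reads outside members and mitochondrial genes (-0.0028), and in RPS4X with quantile normalization (0.0092). Over libraries left out they ran from -0.0834 to 0.0597 in RPS19, -0.005 to 0.2709 in RPL11, -0.0396 to 0.0964 in RPLP0 and -0.0765 to 0.0252 in RPS4X. In KYSE510, RPLP2 turned to 0.0191 with median centring and ran from -0.0559 to 0.0547 over libraries left out. The blocked fit changed the call of no other ribosomal protein gene than those named beside the results. Over both lines it called 7 of 13 squamous markers higher (1 without it) and 1 of 10 ribosome stress genes (0 without it), and in KYSE510 1 squamous marker (0 without it). The cause of these shifts was not tested.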

Other observations

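RPS2 spanned 471 to 488 RPKM in the 3 silenced KYSE510 libraries and 484 to 679 in the controls. In KYSE150 the most variable member, RPS21, spanned 105 to 178 in silenced libraries and 80.3 to 160.1 in controls.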
